A study of Mus musculus with 9 samples.

Results

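The genes described here make, take up or respond to the supply of amino acids: 36 genes of amino acid synthesis, amino acid transport and the ATF4 response, followed in cultured mouse pre-B cells. They were taken by symbol from a list, and each was read on the probe set with the highest mean over the 9 arrays. Of the 36, 35 had a probe set annotated to that single symbol, out of 18193 such genes on the array, and 33 were bright enough to be tested among 12828 genes. Pycr1 had no such probe set, and Vldlr and Slc7a11 were too dim for the test.

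All 9 arrays came from pre-B cells that lack both IRF4 and IRF8, a pair of interferon regulatory factors without which B cell precursors stall at the pre-B stage, and RNA was hybridised to Affymetrix expression arrays. The controls carry the same double deletion. The comparison groups were cells kept in high IL-7 (5 ng), cells in low IL-7 (0.25 ng), and cells given IRF4 again while held in high IL-7, with 3 arrays each. The labels disagree on the volume in which IL-7 was given, and how IRF4 was delivered is not stated in the material used here. No label describes a group analysed here as handled like the IRF4 cells but left without IRF4, so IRF4 and the handling cannot be told apart. The labels number the replicates without saying that they were separate cultures or animals, and p-values therefore measure only the spread between these arrays, which may be technical. These are bulk samples, in which fewer cells of a type and less RNA per cell cannot be told apart.

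ATF4 is a bZIP transcription factor whose messenger RNA is translated better when the initiation factor eIF2 is phosphorylated, as happens when amino acids run short or proteins misfold. It binds, often with a C/EBP partner, to a short element called CARE and raises genes for amino acid synthesis, amino acid uptake and tRNA charging. In growing lymphocytes the same genes also serve proliferation, since mTORC1 and MYC feed into them, and IL-7 is the growth cytokine of pre-B cells.

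The promoter windows of 6 members are printed because each holds the CARE core and each gene fell in low IL-7, as described further on. They come from RefSeq on build GRCm38.p6, run 5′ to 3′ on the strand of the gene from 250 bases before to 50 bases after its start, and carry the CARE core in capitals. The core TGATGNAA was searched on both strands, so that a match on the opposite strand reads as its reverse complement. The Asns window is chr6:7693160-7693459 on the minus strand, Slc1a4 is chr11:20332664-20332963 (minus), Chac1 is chr2:119350992-119351291 (plus), Nupr1 is chr7:126625421-126625720 (minus), Got1 is chr19:43524556-43524855 (minus) and Trib3 is chr2:152344011-152344310 (minus).
Asns: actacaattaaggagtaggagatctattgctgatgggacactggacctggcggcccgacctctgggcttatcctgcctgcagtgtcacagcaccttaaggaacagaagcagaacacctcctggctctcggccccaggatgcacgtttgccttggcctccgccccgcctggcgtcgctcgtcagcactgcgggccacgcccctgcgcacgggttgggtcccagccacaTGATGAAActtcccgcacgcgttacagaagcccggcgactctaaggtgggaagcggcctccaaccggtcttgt
Slc1a4: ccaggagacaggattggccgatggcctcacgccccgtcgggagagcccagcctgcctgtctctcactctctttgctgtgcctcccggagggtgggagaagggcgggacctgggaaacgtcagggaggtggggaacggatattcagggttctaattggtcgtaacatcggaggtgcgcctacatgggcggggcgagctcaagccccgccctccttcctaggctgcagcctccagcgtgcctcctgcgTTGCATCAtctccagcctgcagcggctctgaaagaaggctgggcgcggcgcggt
Chac1: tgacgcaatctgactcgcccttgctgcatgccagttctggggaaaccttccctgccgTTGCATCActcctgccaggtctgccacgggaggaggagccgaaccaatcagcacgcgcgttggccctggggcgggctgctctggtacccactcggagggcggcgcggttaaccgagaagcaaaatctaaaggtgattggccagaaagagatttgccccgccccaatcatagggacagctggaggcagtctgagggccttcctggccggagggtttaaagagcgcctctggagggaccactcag
Nupr1: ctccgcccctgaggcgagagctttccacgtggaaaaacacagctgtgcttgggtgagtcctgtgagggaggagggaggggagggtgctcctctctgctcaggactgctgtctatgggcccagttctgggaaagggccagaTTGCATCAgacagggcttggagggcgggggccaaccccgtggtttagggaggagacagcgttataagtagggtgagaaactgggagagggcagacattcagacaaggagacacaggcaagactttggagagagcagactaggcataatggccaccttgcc
Got1: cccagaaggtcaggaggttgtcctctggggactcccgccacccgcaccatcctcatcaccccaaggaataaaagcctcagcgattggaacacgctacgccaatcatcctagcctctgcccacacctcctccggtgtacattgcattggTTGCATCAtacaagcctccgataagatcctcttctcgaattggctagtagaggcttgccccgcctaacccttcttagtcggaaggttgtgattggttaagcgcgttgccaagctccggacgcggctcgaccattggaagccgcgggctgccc
Trib3: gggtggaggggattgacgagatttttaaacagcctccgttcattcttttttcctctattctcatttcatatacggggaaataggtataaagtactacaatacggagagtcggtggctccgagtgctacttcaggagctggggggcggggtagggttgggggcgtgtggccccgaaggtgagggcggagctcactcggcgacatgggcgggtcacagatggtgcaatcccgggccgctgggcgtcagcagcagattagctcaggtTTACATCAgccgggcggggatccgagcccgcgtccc
The matches begin 23 bases before the start in Asns, 4 in Slc1a4, 193 in Chac1, 110 in Nupr1 and 102 in Got1. The Slc1a4 match runs across the start, and that of Trib3 begins after it. Asns carries the core on the strand of the gene, and the other 5 carry it on the opposite strand.

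Windows were matched for 30 of the 36 members, 36 windows in all because some genes have more than 1 start. Eif4ebp1, Cth, Slc7a3, Slc7a5, Slc1a5 and Slc38a1 are named only. The CARE core was in 10 of the 36 member windows (27.8%) and in 1304 of 32851 windows of the same length over all genes (3.97%). The other members with a match were Atf3, Pycr1, Vldlr and Slc7a11, the last with 2 matches. Counted on the strand of the gene alone, the shares were 8.33% and 2.12%. The E-box CACGTG, a palindrome bound by MYC family proteins, was in 3 member windows (8.33%; Aldh18a1, Cbs and Nupr1) and in 7.15% of all windows. No CARE match overlapped an E-box match, and Nupr1 alone among the members holds both. Several genes entered the list as known ATF4 targets, so these shares describe the list. A match is not evidence of binding, and its absence says only that the letters are not in the window.

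**Figure D1:**
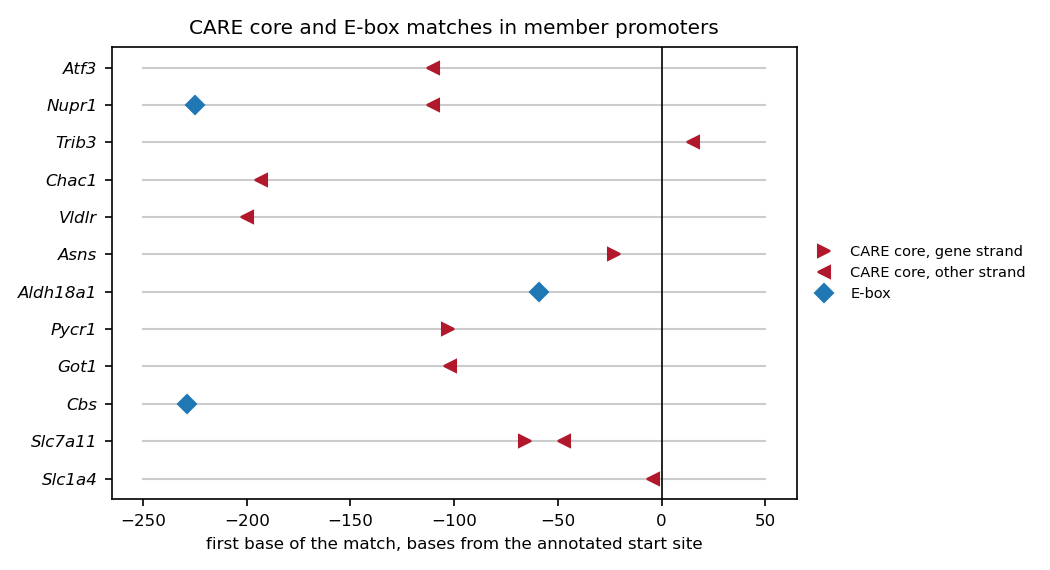
Matches of the CARE core (triangles, pointing right on the strand of the gene and left on the other strand) and of the E-box (diamonds) in the windows of the 12 members that hold either. The horizontal axis is the position of the first base of the match from the annotated start, in bases. Trib3 is the only gene of the 12 with a match that begins after the start.

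The values are deposited array intensities, and changes are differences of log2(intensity + 16) between group means, a scale that understates changes of dim genes. Levels are not compared between genes, because probes differ in brightness. Genes with a mean under an intensity of 106.5, the 40th percentile of all probe sets, were left out of the test (the brightness filter). A gene is said to have risen or fallen where limma's p, adjusted by Benjamini-Hochberg across the 12828 genes, was under 0.05.

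The 2 Irf4 probe sets went in opposite directions. The dimmer measured 381, 202 and 261 in high IL-7, 316, 270 and 257 in low IL-7, and 1088, 1379 and 2543 with IRF4, with replicate 1 lowest of the IRF4 arrays and all 3 above every other array (change 2.45, limma adjusted p = 0.000861 over all probe sets). The brighter measured 4719 to 5791 in high IL-7, 7161 to 7926 in low IL-7 and 3702 to 4256 with IRF4, so that the IRF4 arrays were the lowest 3 (change -0.40, limma adjusted p = 0.0344 over genes). Which part of Irf4 each probe set reads, deleted or supplied again, was not tested, and the group with IRF4 is named by its label. The 18S control probe sets averaged 7.70 to 8.49 on the log2 scale in 7 arrays, but only 6.53 in the first high IL-7 array and 6.41 in the third IRF4 array. Array medians ran from 139.7 to 151.3. B lineage markers, 10 of 10 measured above the filter, summed to 62823 to 71315 in high IL-7, 91558 to 93783 in low IL-7 and 68637 to 71397 with IRF4. Of the myeloid markers 8 of 14 were above the filter, of the T cell markers 5 of 9 and of the erythroid markers 3 of 7. Summed over all markers of a list with a probe set, the levels ran from 2715 to 4380, from 1859 to 2351 and from 1152 to 1308 over the 9 arrays. Of 20 stromal markers 17 were above the filter, and Dcn, Lum and Postn were not.

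Most of the group was lower in low IL-7. Of the 33 tested members, 22 fell, 1 rose and 10 passed in neither direction, against 19.6% of all tested genes that fell and 17.8% that rose. The median change over the members was -1.22 on the log2 scale, beside 0.02 over all genes tested. In 19 members the fall was at least 2-fold, which 4.04% of all genes reached, while 0 members rose that far, which 2.71% of all genes did. All 3 low arrays lay below all 3 high arrays in 26 members and above them in 3, and the groups overlapped in 4. Over all genes the low arrays lay below in 24.7% and above in 25.5%.

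Once IRF4 was given back, limma called 0 of 33 members against high IL-7, where 0.99% of all genes fell and 1.9% rose (0.179% and 0.647% by at least 2-fold). At an unadjusted limma p under 0.05, 10 of the 33 members were lower and 0 higher, beside 1046 lower and 881 higher of the 12828 genes. The median member change was -0.20, beside -0.01 over all genes. The IRF4 arrays lay wholly below the high arrays in 3 members, Trib3, Mthfd1l and Slc38a2, and above in 0, where over all genes they lay below in 11% and above in 9.99%. Against the same low arrays, the IRF4 cells were higher in 19 members and lower in 4, beside 18.6% and 17.7% of all genes. At least 2-fold, they were higher in 15 members and lower in 1, beside 2.93% and 2.85% of all genes. The IRF4 arrays lay above the low arrays in 20 members and below them in 5, beside 24.5% and 23.6% of all genes. The low arrays enter both this comparison and the one above, so the pair of counts is not independent.

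**Figure D2:**
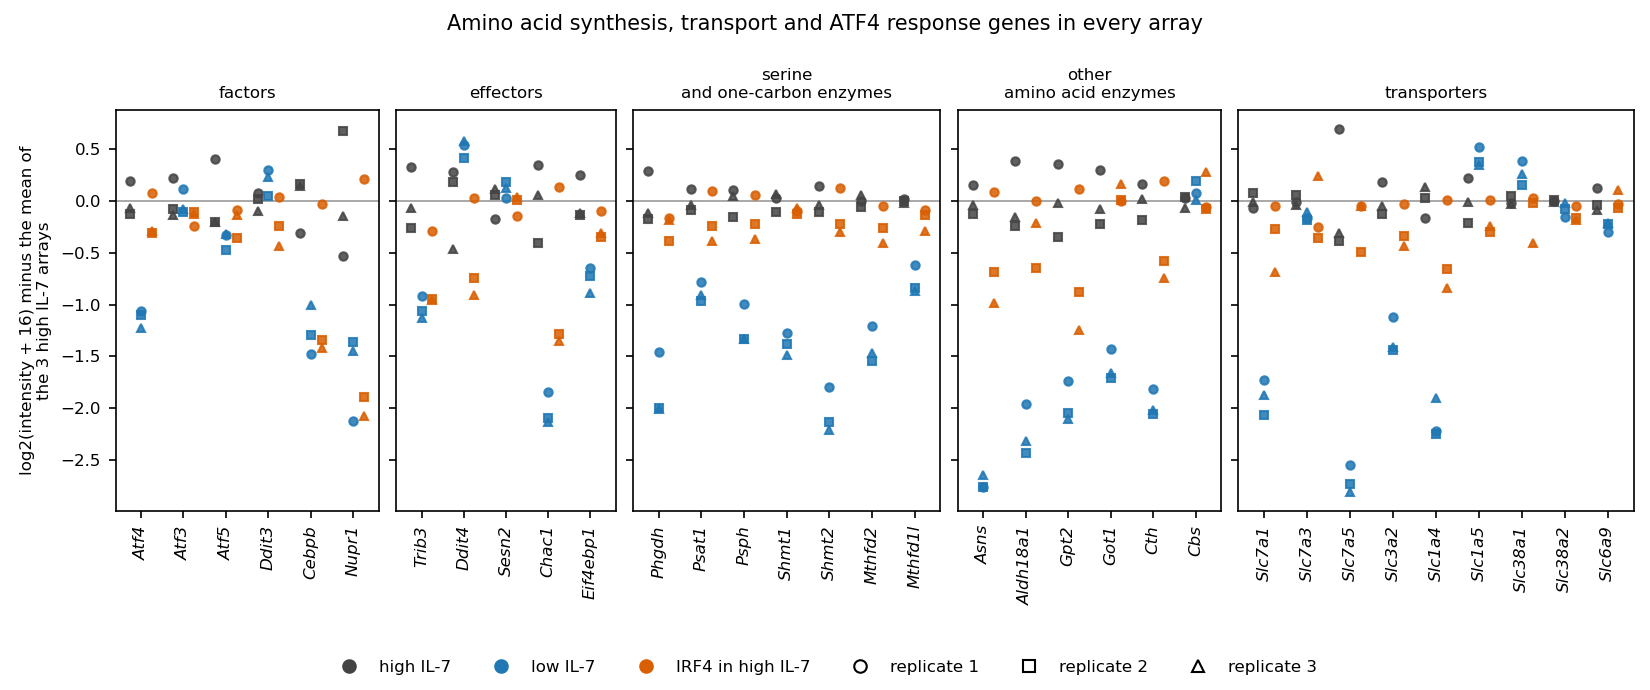
Difference of log2(intensity + 16) in each of the 9 arrays from the mean of the 3 high IL-7 arrays, for the 33 tested members in panels by role; colour gives the group and marker shape the replicate. The low IL-7 points lie below the high points for all 7 serine and one-carbon enzymes and above them for Slc1a5, Slc38a1 and Ddit4.

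The transcription factors of the response moved unevenly, and 3 of 6 tested fell in low IL-7, beside 19.6% of all tested genes. Atf4 itself measured 6084, 4895 and 5097 in high IL-7 replicates 1, 2 and 3, then 2556, 2477 and 2273 in low IL-7, and 5634, 4316 and 4349 with IRF4. On this probe set the low arrays lay well below every other array, and the IRF4 arrays overlapped the high ones. The change in low IL-7 was -1.13 (SE 0.114, limma adjusted p = 2.42e-05), and that with IRF4 was -0.17 (adjusted p = 0.535). This is the level of the messenger RNA, while ATF4 activity is set largely in translation, which the arrays do not measure. A second Atf4 probe set (mean 3788, beside 4187) may match several transcripts. In low IL-7 its change was -0.49 (limma adjusted p = 0.0179 over all probe sets). Its low arrays, at 2789, 3207 and 3212, overlapped IRF4 replicate 3 (3130). On it, IRF4 against low IL-7 did not pass (0.35, limma adjusted p = 0.0762).

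Cebpb, a bZIP partner of ATF4, measured 301, 425 and 418 in high IL-7, 125, 144 and 180 in low IL-7, and 368, 139 and 131 with IRF4. The low arrays were all below the high arrays, while IRF4 replicate 1 lay among the high arrays and the other two IRF4 arrays among the low ones. Its change in low IL-7 was -1.26 (SE 0.31, limma adjusted p = 0.00894), and its change with IRF4 was -0.93 (adjusted p = 0.179). Nupr1, a small stress-induced chromatin protein, measured 167, 407 and 223 in high IL-7, 44.8, 86.8 and 81.1 in low IL-7, and 290, 55.5 and 46.8 with IRF4. Again replicate 1 of the IRF4 group was apart from its partners, and on the log2 scale the means of the low and IRF4 groups were under the brightness filter. The change of Nupr1 in low IL-7 was -1.64 (SE 0.53, limma adjusted p = 0.0313). That call was lost once arrays were blocked by replicate number (adjusted p = 0.054), and also without high replicate 2 (0.103) or 3 (0.0603), or low replicate 1 (0.11), 2 (0.0551) or 3 (0.0631).

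Both genes have a pattern across arrays that the stromal and fibroblast markers share. The summed intensity of the 20 listed markers, 17 of which passed the filter, was 20073, 56146 and 38411 in high IL-7, 19011, 29703 and 27329 in low IL-7, and 39539, 18438 and 19273 with IRF4. It was highest in high replicates 2 and 3 and IRF4 replicate 1, the arrays in which Cebpb and Nupr1 were high. The mean log2 level of the 17 was 9.39, 11.18 and 10.51 in high IL-7, 8.61, 9.65 and 9.39 in low IL-7, and 10.65, 8.78 and 9.03 with IRF4. Of the 17, 5 fell and 1 rose in low IL-7 (median -1.31), and 0 passed with IRF4 (median -1.04). The part of stromal RNA in the values of Cebpb, Nupr1 and the other members was not tested. Atf3, Atf5 and Ddit3 (CHOP, the factor tied to cell death under stress) did not pass in low IL-7, with differences of -0.02, -0.37 and 0.19. For Atf5 the replicate block gave a fall (limma adjusted p = 0.0382). So did the block on the low and high arrays alone (0.0262) and the fit without high replicate 2 (0.0478). Ddit3 was lower with IRF4 than in low IL-7, with a difference of -0.40 (limma adjusted p = 0.0266). This call was lost without low replicate 1 (0.0866) or 3 (0.0837), or IRF4 replicate 2 (0.0732) or 3 (0.0872). It was also lost with arrays scaled to the same median (0.064), probe sets averaged (0.0715), or both arrays of low 18S signal left out (0.0774). The mean log2 level of Atf3 with IRF4 was under the brightness filter.

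Among the effectors, genes through which ATF4 feeds back on stress and growth, 3 of 5 fell in low IL-7, beside 19.6% of all genes. Chac1, which degrades glutathione, measured 480, 279 and 391 in high IL-7, 92.9, 75.5 and 73.0 in low IL-7, and 412, 144 and 138 with IRF4. The low arrays were the lowest 3 of the 9, and IRF4 replicates 2 and 3 lay between them and the high arrays. Its change in low IL-7 was -2.02 (SE 0.34, limma adjusted p = 0.000795). With IRF4 against low IL-7 it rose by 1.19 (adjusted p = 0.0186), a call lost without low replicate 2 (0.056) or 3 (0.0634).

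Trib3, a pseudokinase that binds ATF4, measured 505, 332 and 379 in high IL-7, 204, 183 and 174 in low IL-7, and 324, 199 and 199 with IRF4. Every low array and every IRF4 array lay below every high array, and the low and IRF4 groups overlapped. Its change in low IL-7 was -1.04 (SE 0.19, limma adjusted p = 0.00147), and with IRF4 the change was -0.73 (adjusted p = 0.0795). A dimmer Trib3 probe set, which may match several transcripts, fell with IRF4 by 0.99 (limma adjusted p = 0.0466 over all probe sets).

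Ddit4, also known as REDD1, which restrains mTORC1, had the largest positive change of the members in low IL-7, though it did not pass. Its intensities were 1283, 1198 and 763 in high IL-7, 1538, 1413 and 1589 in low IL-7, and 1078, 623 and 554 with IRF4. The low arrays were the highest 3, and the IRF4 arrays overlapped the high ones. Its change in low IL-7 was 0.51 (SE 0.24, limma adjusted p = 0.127). This change passed in several settings, among them the replicate block on the low and high arrays alone (adjusted p = 0.0223). It also passed without IRF4 replicate 1 (0.0374). With IRF4, Ddit4 was lower than in low IL-7, at -1.05 (adjusted p = 0.0061). Eif4ebp1, a repressor of cap-dependent translation, fell by 0.75 in low IL-7 (limma adjusted p = 0.00046), and Sesn2, a leucine sensor, differed by 0.11 without passing (adjusted p = 0.443).

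Serine synthesis and the folate one-carbon pathway that starts from serine fell together in low IL-7, where 7 of 7 enzymes passed. Over all genes tested, 19.6% fell. Phgdh, which opens the serine pathway, measured 8208, 5942 and 6199 in high IL-7, 2442, 1675 and 1657 in low IL-7, and 5997, 5146 and 5893 with IRF4. The low arrays were clearly apart, and the change was -1.82 (SE 0.16, limma adjusted p = 8.72e-06). Psph, which closes the pathway, measured 2031, 1700 and 1955 in high IL-7, 941, 739 and 740 in low IL-7, and 1970, 1620 and 1463 with IRF4. It also separated the low arrays from all others and fell by 1.22 (SE 0.13, limma adjusted p = 4.24e-05). Psat1, which acts between them, fell by 0.89 (limma adjusted p = 0.000112).

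Shmt1 and Shmt2 pass the carbon of serine to folate, in the cytosol and in mitochondria. Shmt2 measured 4732, 3982 and 4185 in high IL-7, 1225, 968 and 917 in low IL-7, and 4678, 3686 and 3477 with IRF4. Shmt1 measured 1728, 1571 and 1775 in high IL-7, 687, 641 and 591 in low IL-7, and 1583, 1549 and 1609 with IRF4. In both the low arrays lay below all others and the IRF4 arrays overlapped the high ones. The change was -2.04 for Shmt2 (SE 0.13, limma adjusted p = 1.66e-06). For Shmt1 it was -1.38 (SE 0.09, limma adjusted p = 1.29e-06). Mthfd2, a mitochondrial folate enzyme, measured 2702, 2588 and 2820 in high IL-7, 1163, 918 and 968 in low IL-7, and 2608, 2255 and 2041 with IRF4. Its low arrays also stood apart, with a change of -1.40 (SE 0.11, limma adjusted p = 5.19e-06). Mthfd1l, of the same compartment, fell by 0.78 (limma adjusted p = 4.09e-05). With IRF4, all 7 enzymes were below their high IL-7 mean, with changes from -0.24 to -0.10, and 0 passed.

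Of the other amino acid enzymes, 5 of 6 fell in low IL-7, beside 19.6% of all tested genes. Asns, which makes asparagine, measured 3972, 3264 and 3473 in high IL-7, 511, 510 and 554 in low IL-7, and 3771, 2203 and 1788 with IRF4. The low arrays agreed closely with each other and lay below every other array, and IRF4 replicates 2 and 3 lay between the low and the high arrays. The change was -2.72 (SE 0.215, limma adjusted p = 4.84e-06), the largest fall of any tested member, with Slc7a5 close to it. With IRF4 it was -0.53 (adjusted p = 0.277). Aldh18a1, which opens proline synthesis from glutamate, measured 3711, 2400 and 2550 in high IL-7, 718, 511 and 558 in low IL-7, and 2834, 1800 and 2442 with IRF4. It fell by 2.23 (SE 0.20, limma adjusted p = 1.13e-05), with every low array below every other array.

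The aminotransferases fell too. Gpt2, the mitochondrial alanine aminotransferase, measured 493, 297 and 377 in high IL-7, 103, 80.2 and 76.4 in low IL-7, and 415, 200 and 152 with IRF4. The low arrays were lowest, and IRF4 replicates 2 and 3 lay between them and the high arrays. Its change was -1.96 (SE 0.30, limma adjusted p = 0.000416). Other Gpt2 probe sets above the filter changed less, by -0.41 and -0.17, and a further probe set under the filter changed by -1.64. Got1, the cytosolic aspartate aminotransferase, measured 1593, 1099 and 1222 in high IL-7, 468, 384 and 396 in low IL-7, and 1288, 1301 and 1446 with IRF4. Here the IRF4 arrays all lay within the range of the high arrays, and the low arrays lay below both. The change of Got1 in low IL-7 was -1.60 (SE 0.14, limma adjusted p = 7.75e-06), and with IRF4 its change was 0.06.

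Cth, which releases cysteine from cystathionine, measured 422, 327 and 378 in high IL-7, 95.2, 77.7 and 80.6 in low IL-7, and 428, 245 and 216 with IRF4. The low arrays were the lowest, and IRF4 replicates 2 and 3 were below the high arrays. Its change in low IL-7 was -1.96 (SE 0.21, limma adjusted p = 3.2e-05). Cbs, the enzyme of the step before in the same route, ranged from 209 to 274 over all 9 arrays with a difference of 0.09 in low IL-7 that did not pass (limma adjusted p = 0.562).

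Amino acid transporters were the mixed class: 4 of 9 tested fell in low IL-7, 1 rose and 4 did not pass. Over all genes tested, 19.6% fell and 17.8% rose. Slc7a5, the light chain of the large neutral amino acid exchanger, measured 3211, 1507 and 1585 in high IL-7, 325, 283 and 267 in low IL-7, and 1909, 1396 and 1913 with IRF4. Its partner Slc3a2, the heavy chain, measured 2939, 2366 and 2499 in high IL-7, 1183, 947 and 965 in low IL-7, and 2532, 2048 and 1906 with IRF4. For both chains the low arrays were below all others, and the IRF4 and high arrays overlapped. The light chain fell by 2.70 (SE 0.25, limma adjusted p = 1.36e-05). The heavy chain fell by 1.32 (SE 0.13, limma adjusted p = 2.1e-05).

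Slc7a1, a carrier of arginine and lysine, measured 3984, 4420 and 4169 in high IL-7, 1253, 991 and 1130 in low IL-7, and 4061, 3475 and 2605 with IRF4. The low arrays stood apart, and the change was -1.89 (SE 0.145, limma adjusted p = 4.29e-06). Slc1a4, a carrier of alanine, serine and cysteine, measured 358, 411 and 445 in high IL-7, 74.3, 72.1 and 96.0 in low IL-7, and 406, 250 and 218 with IRF4. IRF4 replicate 1 lay among the high arrays and the other two between high and low. Its change in low IL-7 was -2.12 (SE 0.19, limma adjusted p = 1.2e-05).

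Slc1a5, the glutamine carrier, went the other way. It measured 9215, 6789 and 7862 in high IL-7, 11291, 10245 and 10032 in low IL-7, and 7971, 6411 and 6666 with IRF4, so that every low array was above every other array. It rose by 0.41 (SE 0.11, limma adjusted p = 0.0126), a call lost without low replicate 1 (adjusted p = 0.0517), and a second Slc1a5 probe set also rose (adjusted p = 0.014 over all probe sets). With IRF4 it was lower than in low IL-7, at -0.59 (limma adjusted p = 0.00175). Slc38a1, another glutamine carrier, was 0.27 higher in low IL-7 without passing (limma adjusted p = 0.0817). It passed in several settings, among them the replicate block on the low and high arrays alone (0.0185). With IRF4 it was lower than in low IL-7, at -0.40 (adjusted p = 0.0156), a call lost without low replicate 1 (0.0571). Slc7a3, Slc38a2 and Slc6a9, carriers of cationic amino acids, small neutral amino acids and glycine, had differences of -0.15, -0.08 and -0.25 and did not pass. Slc6a9 passed as a fall in several settings, among them the block on the low and high arrays alone (limma adjusted p = 0.0467). Among members left untested, the cystine carrier Slc7a11 ranged from 40.4 to 64.9 over the 9 arrays, and the lipoprotein receptor Vldlr from 82.6 to 132.

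**Figure D3:**
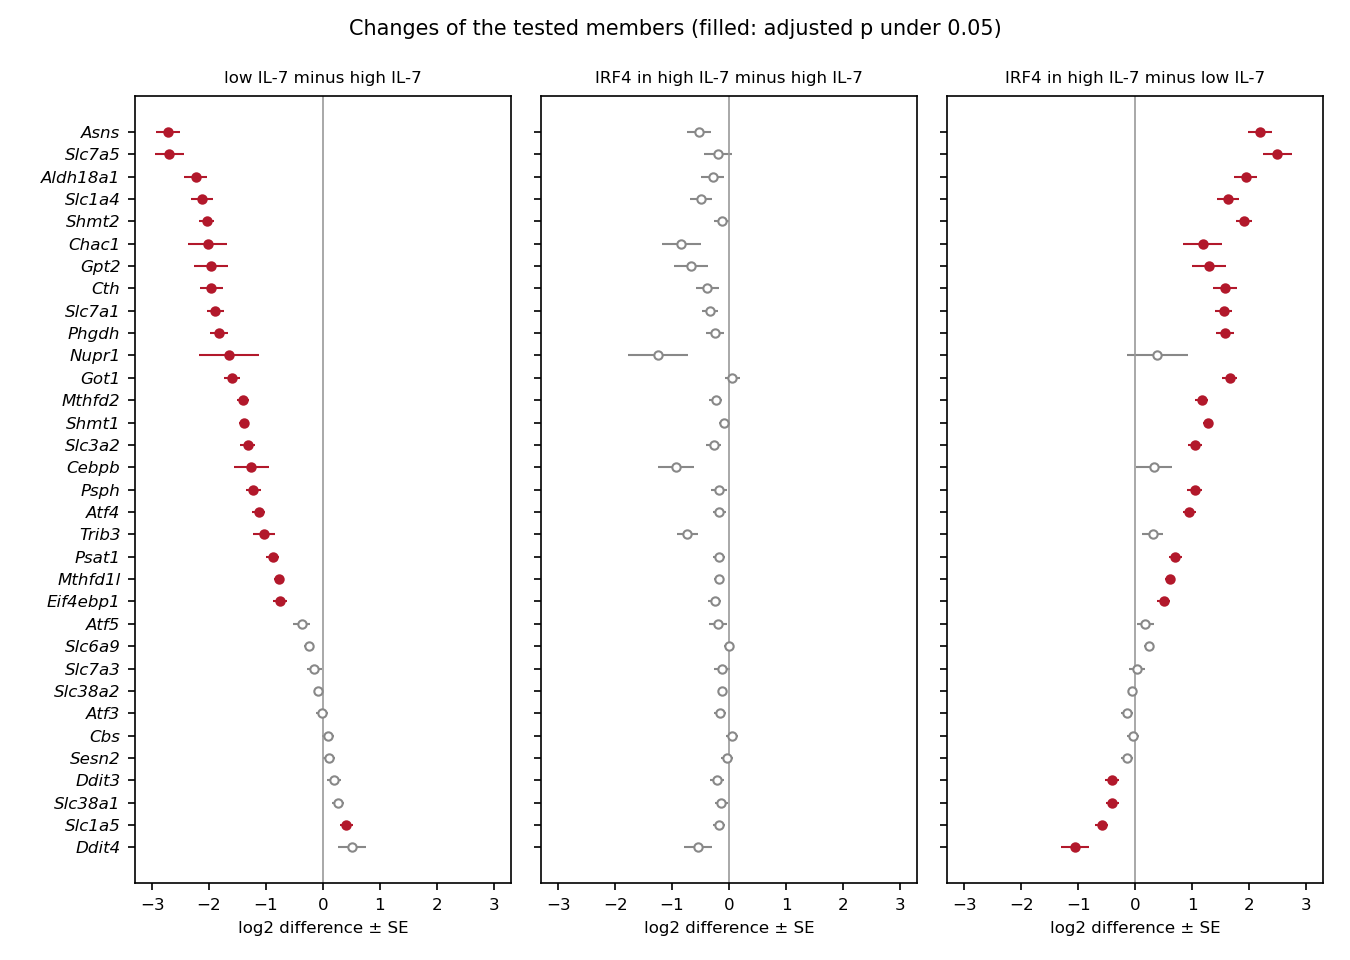
Difference of group means on the log2(intensity + 16) scale, with bars of 1 standard error, for the 33 tested members in the 3 comparisons, ordered by the change in low IL-7; filled points have a limma adjusted p under 0.05. In low against high IL-7, 22 filled points lie left of 0 and 1 lies right, and in IRF4 against high IL-7 there are 0 filled points.

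For 5 genes, Chac1, Gpt2, Cth, Slc1a4 and Nupr1, the low IL-7 mean was under the brightness filter, so the size of the fall depends on the constant added before the logarithm. With 1 added, their changes were -2.21, -2.14, -2.14, -2.32 and -1.85. With 64 added they were -1.61, -1.57, -1.56, -1.69 and -1.24. Most members have more than 1 probe set on the array. The probe sets used for Phgdh, Shmt1, Shmt2, Aldh18a1, Gpt2 and Slc38a1 may match several transcripts, as may every other Phgdh probe set. Of 26 further probe sets above the filter that belong to members that fell in low IL-7, 23 also fell over all probe sets and 0 rose. All 26 read genes already called on the same arrays, so this count is not independent of those calls. The share over all probe sets is not given here. The 3 that did not pass were probe sets of Atf4, Eif4ebp1 and Gpt2, with mean intensities of 154, 129 and 174. That of Gpt2 was not far dimmer than the probe set used for the gene, which averaged 244.

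The 3 IRF4 arrays differed in these genes, with replicate 1 apart from replicates 2 and 3. A count of members below all 3 high arrays gave 26, 26 and 26 of 33 in low replicates 1, 2 and 3 (78.8% each, beside 34.7%, 36.9% and 37.1% of all genes). The same count gave 5 for IRF4 replicate 1 (15.2%, beside 24% of all genes), 28 for replicate 2 (84.8%, beside 28.4%) and 23 for replicate 3 (69.7%, beside 39.1%). The median member change from the high mean was -1.06, -1.29 and -1.23 in the low arrays and -0.03, -0.31 and -0.31 in the IRF4 arrays. Replicates 2 and 3 with IRF4 were lower in most members, and replicate 1 was not. Many of these differences were small. In replicates 2 and 3 they reached -1.9 and -2.1 in Nupr1, -1.3 and -1.4 in Cebpb, and -1.3 and -1.3 in Chac1.

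Without IRF4 replicate 1, a choice made after its values were seen, 9 of 33 members fell with IRF4 against high IL-7 and 0 rose, beside 2.64% and 2.08% of all genes. The median member change was then -0.30. The 9 were Nupr1 (-1.98), Cebpb (-1.38), Chac1 (-1.32), Gpt2 (-1.06), Trib3 (-0.95), Asns (-0.84), Ddit4 (-0.83), Slc1a4 (-0.75) and Cth (-0.66), with limma adjusted p from 0.0011 to 0.0362. Ddit4 is on this list, and its mean was higher in low IL-7 than in high. None of the 7 serine and one-carbon enzymes is on it. The IRF4 arrays kept had stromal marker sums of 18438 and 19273, beside 39539 in the array left out and 20073, 56146 and 38411 in high IL-7. IRF4 replicate 3 also had a low 18S signal (6.41). The part of stromal RNA or array quality in these calls was not tested. With all 3 arrays kept, weighting arrays by their quality gave 14 members that fell, in a fit that called 1679 falling genes in place of 127.

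**Figure D4:**
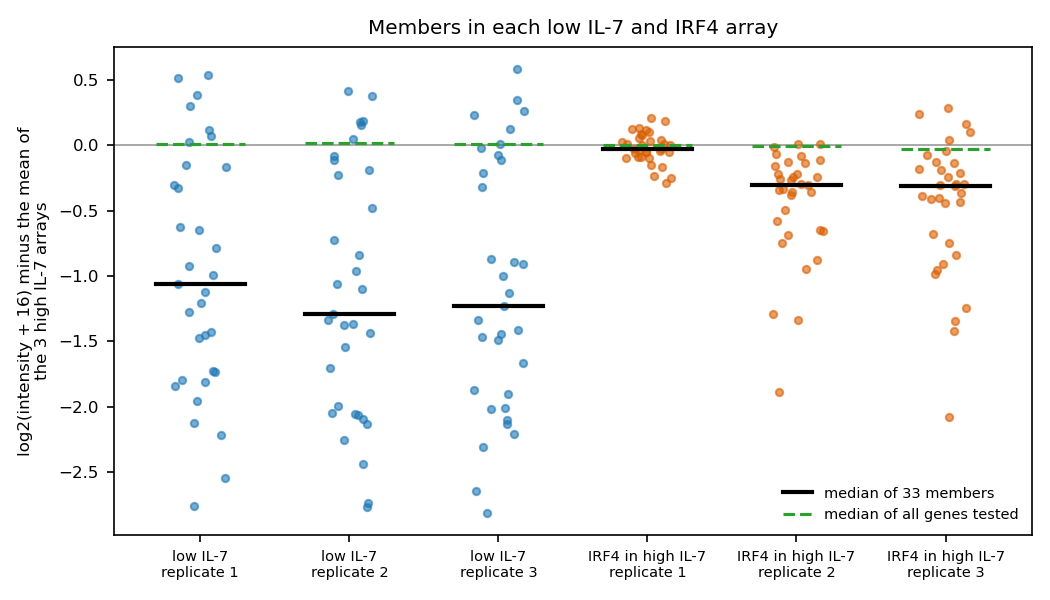
Difference of log2(intensity + 16) from the mean of the 3 high IL-7 arrays, with a point for each of the 33 tested members, in each low IL-7 and IRF4 array; solid bars are member medians and dashed bars medians of all genes tested. The member median is -1.06 to -1.29 in the low arrays, -0.03 in IRF4 replicate 1 and -0.31 in IRF4 replicates 2 and 3.

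Related genes, from lists chosen for function with earlier results of these data known, set the members beside their pathway. The cytosolic aminoacyl-tRNA synthetases, which charge tRNAs, had 19 of 20 genes that fell in low IL-7 and 0 that rose, with a median of -1.16, beside the 19.6% and 17.8% of all genes given above. With IRF4, 19 of the 20 were above their low IL-7 level by the same test, beside 18.6% of all genes. The same low arrays enter both counts. The changes of Iars, Tars, Nars and Gars in low IL-7 were -1.54, -1.48, -1.27 and -1.15. Of 18 other genes of folate, one-carbon and methionine metabolism, 12 fell and 0 rose (median -0.66), including the folate carrier Slc19a1 (-1.87), the methionine salvage enzyme Mtap (-1.70) and Mthfd1 (-1.47). Of 15 genes for eIF2, its kinases and phosphatase and eIF2B, 9 fell and 1 rose (median -0.50). The eIF2B subunit Eif2b3 fell by 1.55, and the riser was Eif2ak3, the PERK kinase, which also rose with IRF4 by 0.55 (limma adjusted p = 0.0146).

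Other lists were split, beside 19.6% of all tested genes that fell in low IL-7 and 17.8% that rose. Of 22 further amino acid synthesis and breakdown genes, 10 fell and 5 rose (median -0.30), led by the branched-chain aminotransferase Bcat1 (-2.12). Of 22 other amino acid transporters, 6 fell and 6 rose (median -0.04). Of 34 genes of mTORC1 and amino acid sensing, 6 fell and 7 rose (median 0.00), close to the shares of all genes. Of 22 other bZIP factors, 6 fell and 3 rose (median -0.05). Other genes listed as ATF4 or CHOP targets, 18 tested, had 8 that rose, 2 that fell and 8 that did not pass in low IL-7 (median 0.14), with Map1lc3b, an autophagy gene, at 0.96 and the growth factor gene Vegfa at -1.91. With IRF4 against high IL-7, these 8 lists held 5 calls among 171 tested genes (1.17% rose and 1.75% fell, beside 1.9% and 0.99% of all genes): Eif2ak3 and Gadd45a rose, and Slc7a7, Slc25a13 and Rragd fell.

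**Figure D5:**
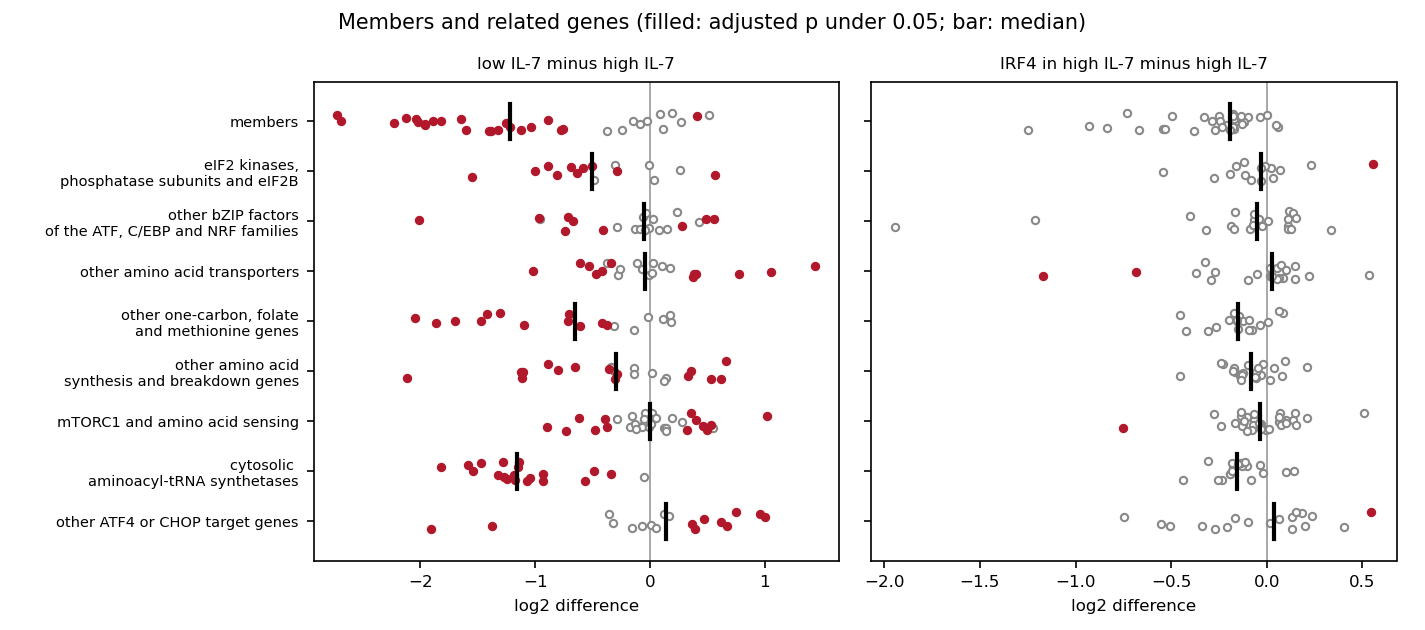
Log2 differences of the tested members and of the genes in the 8 related lists, in low IL-7 (left) and with IRF4 (right), each against high IL-7; a point is a gene, filled where the limma adjusted p was under 0.05, and the bar is the median. In low IL-7 the medians of the members and of the aminoacyl-tRNA synthetases lie at -1.22 and -1.16, and that of the other ATF4 or CHOP targets at 0.14.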

How the data were processed

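RNA of 9 samples was hybridised to Affymetrix arrays, 3 per group. The values used are the deposited intensities of the series value table, on a linear scale from 0 to 24761.9. As to how the authors summarised and scaled the probe sets, the steps are not given in the sources used here. Of 45101 probe sets, 64 controls were left out, 34945 had 1 gene symbol in the platform annotation, 932 several and 9160 none. All 35 member symbols matched RefSeq by Entrez ID. Per gene the brightest probe set was kept, log2(intensity + 16) was taken, and genes whose mean was under the 40th percentile of all probe sets (intensity 106.5) were left out. limma 3.58.1 in R 4.3.3 (lmFit and eBayes with a trend, all 9 arrays, 3 group means) gave the tests, with Benjamini-Hochberg adjustment over 12828 genes. The fit was tested on simulated data. Values in every array are given for the 20 members called with a log2 change of at least 1 in any comparison. Members and lists were chosen with earlier results of these data known.

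Replicate arrays correlated at 0.977 to 0.995. Same-numbered arrays deviated together in low and high IL-7 (correlations 0.54, 0.38 and 0.28), which is where the pairing comes from, since the labels do not state it. Differently numbered low and high arrays ranged from -0.52 to 0.35, and low replicate 3 correlated more with high replicate 2 than with its own number. They did not in IRF4 and high IL-7 (-0.36, -0.11 and -0.37) or IRF4 and low IL-7 (0.00, -0.09 and -0.15). Alternatives changed the scaling, pseudocount, filter, probe set rule, array weights, block and arrays kept. Precision is limited by 3 arrays per group.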

Additional observations from a re-analysis of the deposited data

How the results depend on the processing

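Of the member values, 0 reversed a called direction under the alternatives run. In low against high IL-7, 727 of 754 alternative values kept their side of the threshold, and 21 of the 23 called members kept their call in all 23 settings; the exceptions were Nupr1 and Slc1a5. Against low IL-7, 20 of the 23 calls with IRF4 held in all settings, and Chac1, Ddit3 and Slc38a1 did not. The count of members that rose in low IL-7, 1 as reported, became 2 after quantile scaling, 4 with array weights, 3 with only these groups fitted, 3 with only these groups and the replicate block, and 2 without the arrays of low 18S signal; leaving out an array gave 0 to 2. The fallen members with IRF4 against high IL-7, 0 as reported, became 14 with array weights and ranged from 0 to 9 on leaving out an array, with 9 without IRF4 replicate 1. Those that fell with IRF4 against low IL-7, 4 as reported, ranged from 2 (without low replicate 1) to 4 on leaving out an array, and from 3 to 5 (array weights) under the other settings. The median of that comparison, 0.71, was 0.51 when probe sets were averaged. Counting the CARE core on the strand of the gene gave 8.33% in place of 27.8%.

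With the replicate block on all arrays, Nupr1 lost its call in low IL-7 (adjusted p = 0.054) and Atf5 gained one (0.0382), and no other member call of that comparison changed. In IRF4 against high IL-7, where the numbers do not pair the arrays, the block gave 1 member that fell, Trib3 (0.0125).

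Over all genes, array weights raised the calls from 2510 fallen and 2286 risen to 4148 and 4131 in low IL-7, from 127 and 244 to 1679 and 1590 with IRF4, and from 2272 and 2388 to 3710 and 4079 in IRF4 against low IL-7. Leaving out an array gave 51 to 339 fallen and 136 to 267 risen genes with IRF4 against high IL-7, with 339 fallen without IRF4 replicate 1, 51 without 2 and 58 without 3, 77 and 60 without high replicates 2 and 3, and 79 without low replicate 3; 137 rose without high replicate 3 and 136 without IRF4 replicate 2. In that comparison 55 fell with only those groups fitted and 66 without the arrays of low 18S signal. No scaling moved the median of all genes by more than 0.068. With 3 arrays a group, calls near the threshold turn on single arrays, and the size of change of a gene near background turns on the constant added.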

Other observations

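Among genes outside the member list, the lysine and arginine exchanger light chain Slc7a7 moved in opposite directions on the 2 routes. It measured 691, 557 and 553 in high IL-7, 1835, 1541 and 1584 in low IL-7, and 242, 266 and 262 with IRF4, and no group overlapped another. It rose in low IL-7 by 1.44 (SE 0.112, limma adjusted p = 4.5e-06) and with IRF4 its change was -1.17 (limma adjusted p = 0.00022). Slc25a13, a mitochondrial aspartate and glutamate carrier, fell on both, from 300, 291 and 318 to 136, 152 and 136 in low IL-7 and to 168, 192 and 187 with IRF4. The changes were -1.02 (limma adjusted p = 5.56e-06) and -0.69 (limma adjusted p = 0.00103). Slc43a2, a carrier of large neutral amino acids, rose in low IL-7 by 1.06 (limma adjusted p = 3.18e-05), where Slc7a5 of the member list fell. Rragd, a GTPase that recruits mTORC1, measured 1638, 1428 and 1568 in high IL-7, 2237, 1560 and 1883 in low IL-7, and 1142, 881 and 744 with IRF4, and its change with IRF4 was -0.75 (limma adjusted p = 0.035).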
